A study of Mus musculus with 16 samples.

Results

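CD8-high cells were picked from a marrow and spleen library of mature immune cells in a LARRY experiment, by the share of CD8 among all antibody tag counts of a cell. The library held 7385 cells, of which 5359 had 100 or more tag UMIs (unique molecular identifiers, which count single tag molecules). The 3% with the highest CD8 share gave 160 CD8-high cells, out of 95930 cells in the series. They were set against the 2679 cells in the lower 50% by the same value, called CD8-low here. The CD8 share is the value that chose both groups, so it is given as a description only.

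CD8 is the co-receptor with which cytotoxic T cells bind class I major histocompatibility molecules, and CD4 is its counterpart on helper T cells for class II molecules. CD3 is the signalling part of the T cell receptor complex and is carried by T cells of either kind. Some dendritic cells of the mouse spleen also carry CD8 on their surface, without CD3.

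The same cells were assayed for DNA methylation by scTAM-seq, which runs on the Tapestri platform of Mission Bio. DNA is digested before a fixed panel is amplified, with an enzyme that cannot cut a methylated CpG, so reads from an amplicon stand for methylation of its CpG. Its 663 amplicons are named by panel identifiers alone. In a LARRY experiment, blood cells descend from stem cells marked with lentiviral barcodes. The labels give no strain, age, sex or number of mice for the marrow and spleen library, and they do not say which cells came from which organ. Because there was 1 library, there was no replicate and no test between groups, and all intervals are exact 95% binomial intervals over cells that cover counting error only.

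The library had 214181515 amplicon reads, with a median of 23575 reads per cell. CD8-high cells had a median of 27726 reads and 446.5 amplicons with reads, and CD8-low cells had 23786 reads and 432 amplicons. For this reason CD8-low cells were weighted to the read depth of the CD8-high cells in the amplicon differences below, unless stated otherwise. From 6 to 40 of the 7385 cell barcodes also occurred in each of the other 15 libraries. Doublets were not called, and 9.38% of CD8-high and 6.27% of CD8-low cells were among the 5% of cells with the most amplicons.

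CD8 signal was spread very unevenly among the 160 cells. The CD8 share of tag UMIs ran from 13.7% to 87.97% with a median of 26.3%, against a median of 4.81% in CD8-low cells. In raw counts, CD8-high cells had from 14 to 3482 CD8 UMIs with a median of 74, and CD8-low cells had a median of 9. The last cell inside the cut had 17 CD8 UMIs of 124 tag UMIs (13.71%) and the first cell outside had 22 of 161 (13.665%), so the cut fell within a continuous range. In 40 cells CD8 made up 50% or more of tag UMIs, with 87 to 3482 CD8 UMIs and a median of 549.5. These are called CD8-dominated here, and this limit was chosen after the values were seen. Another 42 cells had 25 to 50% CD8, and 78 cells had less than 25%.

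A low level of every tag but CD115 was present in almost all cells. Of all tag UMIs, 92.8% lay on barcodes that were not called as cells. CD8 made up 6.61% of the UMIs on those barcodes, against a median of 6.28% in the 5359 cells. The CD8-dominated cells stood far above that level, whereas the 78 cells under 25% had a median of 16.7%.

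CD3 did not set the 160 CD8-high cells apart by raw count. Raw CD3 counts ran from 2 to 47 UMIs with a median of 11 in CD8-high cells, and the median was 10 UMIs in CD8-low cells. In CD8-dominated cells they ran from 4 to 39 with a median of 16.5, far below their CD8 counts. To leave CD8 itself out of the total, CD3 was taken as a share of all other tag UMIs. That share had a median of 6.13% in CD8-high, 7.01% in CD8-dominated and 5.41% in CD8-low cells, and it was 6.25% on barcodes that were not called as cells. Of CD8-high cells, 19 of 160 (11.9%, interval 7.30 to 17.9%) were in the top 10% of cells by this share, against 217 of 2679 CD8-low cells (8.10%, interval 7.09 to 9.20%). Among CD8-dominated cells it was 5 of 40 (12.5%, interval 4.19 to 26.8%). These intervals overlap. The picture differed among cells with 300 or more tag UMIs, where the cuts were set anew and all 28 CD8-high cells were CD8-dominated. There, 10 of 28 CD8-high cells (35.7%, interval 18.6 to 55.9%) and 16 of 469 CD8-low cells (3.41%, interval 1.962 to 5.481%) were CD3-high, and these intervals do not overlap. The raw medians were 17 and 19 CD3 UMIs. Another tag made up 50% or more of UMIs in 59.9% of these CD8-low cells and in none of the CD8-high cells, and its part in the difference was not tested.

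CD3 was rarely the main tag of a cell. It made up 50% or more of tag UMIs in 6 of 5359 cells, against 40 for CD8 and 22 for CD4. The highest CD3 share was 83.8%, and raw CD3 counts reached 21914 UMIs in CD8-low cells. CD4 was near the library level in CD8-high cells. CD8-high cells had from 0 to 68 CD4 UMIs, with a median of 8 that equalled the median of CD8-low cells. In CD8-dominated cells CD4 ran from 2 to 27 UMIs with a median of 12. The median CD4 share of non-CD8 tags was 5.36% in them and 4.17% in CD8-low cells. In the top 10% by this share was 1 of the 40 (2.50%, interval 0.0633 to 13.2%), against 10.4% of CD8-low cells. The typical CD8-dominated cell was thus somewhat higher in CD4, while few were in the top 10%.

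**Figure D1:**
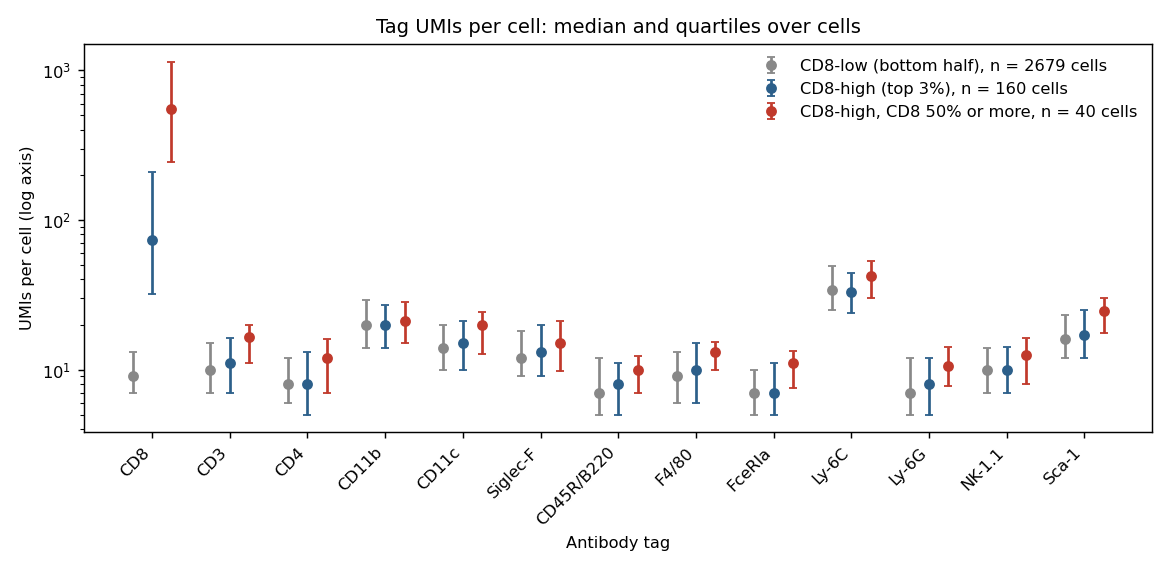
Tag UMIs per cell (log axis) for 13 of the 15 antibody tags in CD8-low, CD8-high and CD8-dominated cells; points are medians and bars run from the lower to the upper quartile over cells. CD8 stands apart at medians of 9, 74 and 549.5 UMIs, while CD3 and CD4 lie with the other tags.

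In CD8-dominated cells, the medians of the tags of other cell types below were near those of CD8-low cells or somewhat higher, as were those of CD3 and CD4. Single members of the 160 stood higher, up to 76.3% Siglec-F among non-CD8 tags. Of 7 T cell markers fixed for this work, 3 were in the panel, and CD5, CD90, CD2 and TCRb were not. For neutrophils and monocytes, 5 of 7 were in the panel (CD11b, Ly-6G, Ly-6C, F4/80 and CD115), with a summed median of 39.8% of non-CD8 tag UMIs in CD8-dominated and 41.9% in CD8-low cells. CD115, the receptor of the monocyte growth factor CSF1, was at 0 in all 160 CD8-high cells and read in 1 of 2679 CD8-low cells. CD11c, an integrin of dendritic cells and the only 1 of 7 dendritic cell markers in the panel, had 8.92% and 7.57%. NK-1.1 of natural killer cells had 5.34% and 5.33%, Siglec-F of eosinophils (tag CD170) 6.88% and 6.67%, the IgE receptor FceRIa of basophils and mast cells 4.75% and 3.56%, and Sca-1, an antigen of stem cells and of many mature lymphocytes, 10.6% and 8.65%. CD45R/B220, a marker of B cells, had 4.47% and 3.82%. No marker of erythroid cells or megakaryocytes and no marker of T cell state was in the panel. CD3 stood apart only as a share of non-CD8 tags among cells with 300 or more tag UMIs. That share leaves out the main tag of the CD8-high cells, but keeps any other main tag of the CD8-low cells. Raw CD3 medians there were 17 UMIs in CD8-high and 19 in CD8-low cells. The 160 cells are therefore called by their CD8 share and given no cell type name. None of the 160 had 20% or more CD3 or CD4 among their non-CD8 tags. Few CD8-low cells did either (0.299% and 1.27%), so this count says little. For Ly-6C, 59 of the 160 had 20% or more, against 38.9% of CD8-low cells. For Siglec-F, CD11b, Ly-6G and Sca-1 it was 5, 4, 2 and 1 of the 160. The CD8-low shares for these were 6.50%, 2.24%, 4.52% and 0.261%.

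Amplicons were compared next, as a readout that played no part in choosing the cells. An amplicon counted as methylated in a cell with 1 or more reads, and a difference of 20 percentage points or more was the size counted. Of 554 amplicons with reads in 2 to 98% of cells, 15 (2.71%) passed it, of which 9 (1.62%) were higher in CD8-high than in depth-weighted CD8-low cells and 6 (1.08%) were lower. The median difference was 0.786 points, and 90% of amplicons lay between -8.93 and 15.2 points. The widest binomial interval of a share in 160 cells was 8.00 points to each side, and the 15 amplicons were picked for their size. Of the 15, 11 belonged to the intermediate amplicons, whose average share across the 12 marrow libraries was between 25 and 90%, as did 397 of the 554 compared, so the count is not particular to that class.

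The largest difference was at AMPL388770, which was read in 50.6% of CD8-high cells (interval 42.6 to 58.6%) and 20.8% of weighted CD8-low cells, a gap of 29.8 points. AMPL376910 was read in 65.6% (57.7 to 72.9%) against 40.6%, and AMPL371677 in 55.0% (47.0 to 62.9%) against 30.3%. The other 6 higher amplicons were AMPL355903, AMPL376318, AMPL371322, AMPL371668, AMPL371618 and AMPL371535, with gaps of 21.2 to 22.4 points. On the other side, AMPL388618 was read in 63.1% (55.2 to 70.6%) of CD8-high and 89.4% of CD8-low cells, a gap of -26.3 points. AMPL371572 was read in 53.8% (45.7 to 61.6%) against 79.0%, and AMPL377174 in 67.5% (59.7 to 74.7%) against 90.4%. AMPL371353, AMPL365968 and AMPL366126 had gaps of -21.4, -20.8 and -20.3 points.

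The CD8-high cells were not uniform at these amplicons. Against CD8-low cells, the gaps of the 40 CD8-dominated cells were 45.2 to 69.2 points in size at the 9 higher and 35.5 to 52.1 at the 6 lower amplicons. Those of the other 120 CD8-high cells were 9.57 to 17.0 and 14.3 to 17.8 points, in the same direction at all 15. AMPL388770 was read in 90% of the 40 CD8-dominated cells (interval 76.3 to 97.2%), in 45.2% of the 42 cells with 25 to 50% CD8 (29.9 to 61.3%) and in 33.3% of the 78 cells under 25% (23.1 to 44.9%), against 19.8% of CD8-low cells before weighting (18.3 to 21.4%). AMPL388618 was read in 37.5%, 64.3% and 75.6% of the same sets (22.7 to 54.2%, 48.0 to 78.5% and 64.6 to 84.7%), against 89.6% of CD8-low cells (88.3 to 90.7%). At each of the 15 amplicons, the CD8-dominated cells lay farther from CD8-low cells than the other 2 sets did. Because the 15 were chosen on all 160 cells, these values describe the members and are no separate support.

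**Figure D2:**
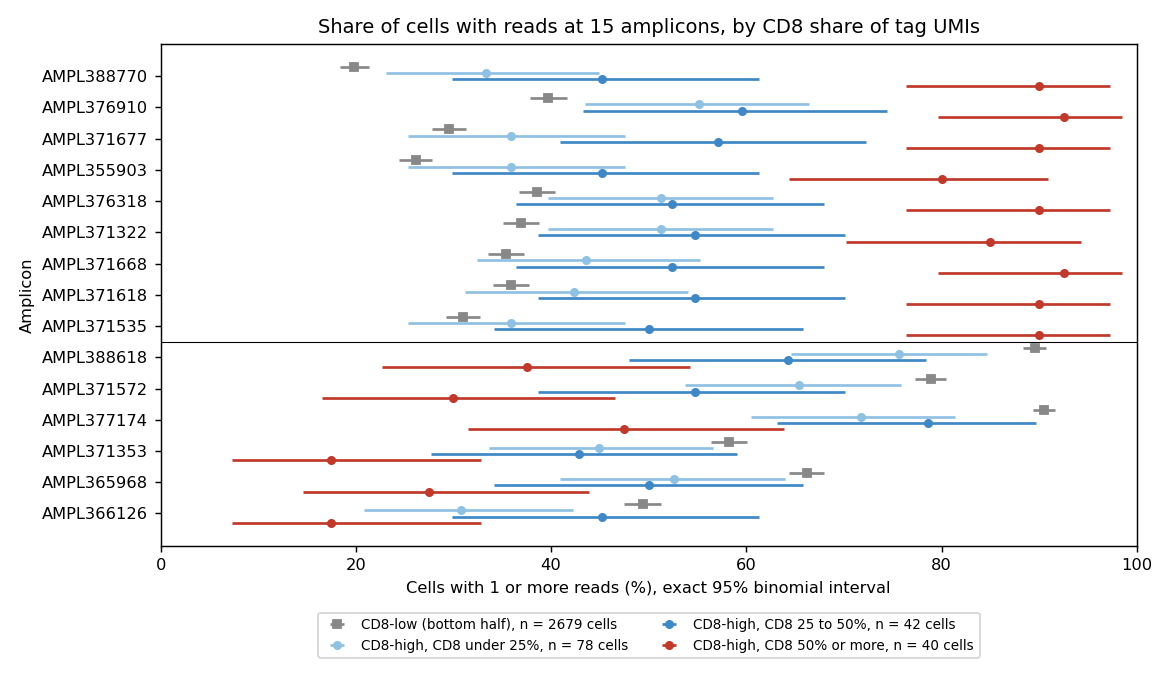
Share of cells with 1 or more reads (percent, x axis) at the 15 amplicons past 20 points (y axis), with exact 95% binomial intervals, for CD8-low cells without weighting and for 3 ranges of the CD8 share among CD8-high cells. The 40 cells with 50% or more CD8 lie at 80 to 92.5% at the upper 9 amplicons and at 17.5 to 47.5% at the lower 6.

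Over the whole panel, CD8-dominated cells differed from depth-weighted CD8-low cells by 20 points or more at 114 of 554 amplicons (20.6%). Of these, 91 were higher (16.4%) and 23 lower (4.15%). With 40 cells an interval reached 16.2 points to each side, so differences near 20 points are not secure one by one. The 42 cells with 25 to 50% CD8 are a set of like size, and they passed 20 points at 9 of 555 amplicons (1.62%), 4 higher (0.721%) and 5 lower (0.901%). Past 40 points there were 28 higher and 7 lower of the 554 amplicons in CD8-dominated cells. There were none of 555 in the cells with 25 to 50% CD8. The 120 CD8-high cells that were not CD8-dominated passed 20 points at none of 555 amplicons (0.0%), although at the 15 named amplicons they kept gaps of up to 17.8 points in size.

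The largest differences of the CD8-dominated cells that were not among the 15 were at AMPL388421 and AMPL388409 on the higher side and at AMPL376320 and AMPL371259 on the lower side. The CD8-low shares given here are before weighting. AMPL388421 was read in 92.5% (79.6 to 98.4%) of CD8-dominated and 28.2% of CD8-low cells. AMPL388409 was read in 70.0% (53.5 to 83.4%) against 14.7%. AMPL376320 was read in 35.0% (20.6 to 51.7%) against 77.7%, and AMPL371259 in 27.5% (14.6 to 43.9%) against 68.6%. CD8-dominated cells had a median of 29371 reads and 489.5 amplicons, and 9 of 40 (22.5%) were among the 5% of cells with the most amplicons. Without such cells, 80 amplicons were higher and 23 lower, and with each cell thinned to 14075 reads there were 91 and 22.

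Over all intermediate amplicons the 2 groups were close. A mean of 70.3% of intermediate amplicons was read per CD8-high cell (SD over cells 9.56 points) and 69.2% in weighted CD8-low cells, a difference of 1.18 points with a counting standard error of 0.779. CD8-dominated cells had a mean of 75.4% (SD over cells 10.04 points). Without them the difference was -0.165 points.

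To see whether CD8-high cells resembled other sets, 160 cells were chosen in the same way by CD3, CD4 and Siglec-F, each against the lower 50% by its own tag. Past 20 points there were 57 of 559 amplicons (10.2%) for CD4, 48 higher and 9 lower (8.59% and 1.61%). There were none of 556 for CD3 and none of 557 for Siglec-F (0.0% each). The CD3 set was weak, with 6 cells at 50% or more CD3 and a lowest share of 9.42%. Cells at 50% or more of their tag numbered 40 for CD8, 22 for CD4 and 92 for Siglec-F. The 0 for CD3 therefore says little about cells that carry CD3. From 1 to 3 of the 160 cells of each set were also CD8-high. All of these sets were drawn from the same 5359 cells, so their values are only placed side by side.

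CD4-high cells differed in the same direction as CD8-high cells at each of the 15 amplicons. The CD4 gap was 45.8 points at AMPL388770, 34.1 at AMPL376910 and -36.7 at AMPL388618, where the CD8 gaps were 29.8, 25.01 and -26.3. For CD3 and Siglec-F, no gap at the 15 amplicons was larger than 9.42 points in size.

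**Figure D3:**
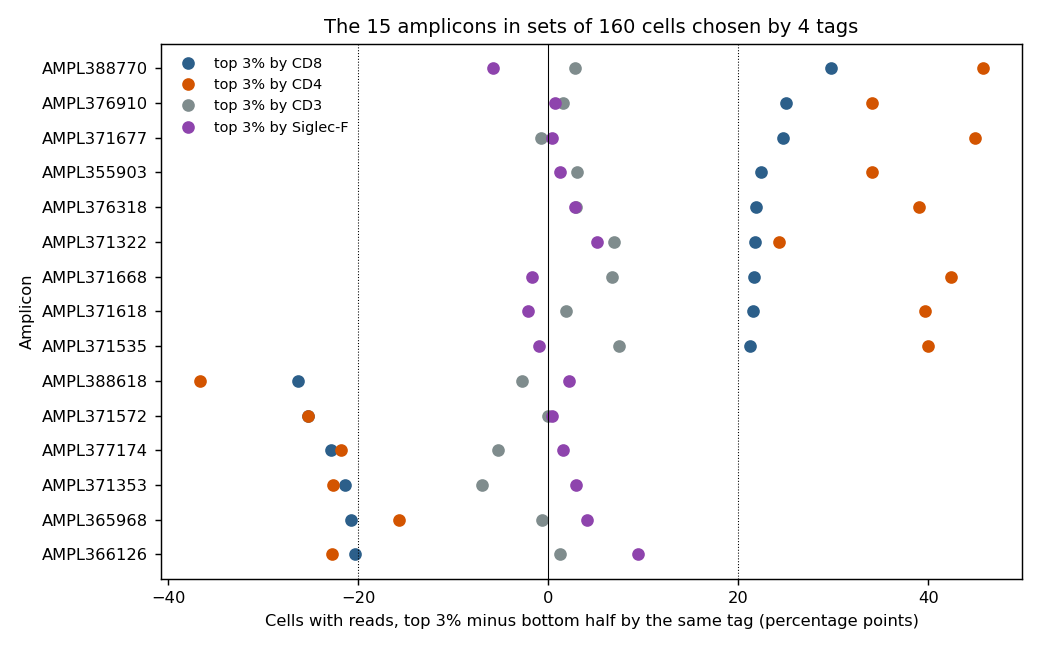
Difference in the share of cells with reads (percentage points, x axis) at the 15 amplicons (y axis) between the top 3% of cells by a tag and the lower 50% by the same tag, for 4 tags with 160 cells each; dotted lines mark 20 points to each side. CD8 and CD4 points lie on the same side at every amplicon, and CD3 and Siglec-F points stay within 9.42 points of 0.

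A list of amplicons from CD4-high cells was then read in single cells that had not been used to build it. It was built from 154 CD4-high cells, of which 110 were CD8-low, and from 1112 CD4-low cells that were in neither CD8 group. The 110 were left out of the CD8-low cells wherever the list was read. It held 59 of 560 amplicons past 20 points (10.5%), 51 higher and 8 lower (9.11% and 1.43%) in CD4-high cells. For each cell, the share of the 59 amplicons in the state of CD4-high cells was counted (reads at the 51, no reads at the 8). The list was formed after earlier values had been seen, so its levels are a description.

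This share had a median of 81.4% in CD8-dominated cells, with quartiles of 72.9 and 84.75%. It was 51.7% in cells with 25 to 50% CD8, 25.4% in the 78 cells under 25% and 22.0% in 2569 CD8-low cells that were not CD4-high. Of CD8-dominated cells, 35 of 40 (87.5%) were above 60% and 3 were below 40%. Of the 160 CD8-high cells, 78 were above 60% and 66 below 40%. CD8-low cells were not all low, since 437 of 2569 (17.0%) were above 60%. The 95th percentile of CD8-low cells was 79.7%, and 21 of 40 CD8-dominated cells lay above it (52.5%, interval 36.1 to 68.5%).

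By amplicon, CD8-dominated cells were higher than CD8-low cells at 50 of the 51 amplicons, with a median difference of 41.4 points, and lower at 8 of 8, with a median of -43.3 points. The median over all 554 amplicons was 3.56 points. The 78 cells under 25% CD8 had medians of 4.41 and -14.0 points on the 2 parts of the list.

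The CD8 share did not order the cells below the CD8-dominated ones. The 160 cells just under the cut, with 10.8 to 13.7% CD8 and a median of 146.5 tag UMIs, had a median of 53.4% on the CD4 list, above the 25.4% of the 78 lowest CD8-high cells. They passed 20 points against CD8-low cells at 13 of 557 amplicons (2.33%), 6 higher and 7 lower (1.08% and 1.26%). AMPL388770 was read in 47.5% of them (39.6 to 55.5%), against 33.3% (23.1 to 44.9%) of the CD8-high cells under 25%.

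**Figure D4:**
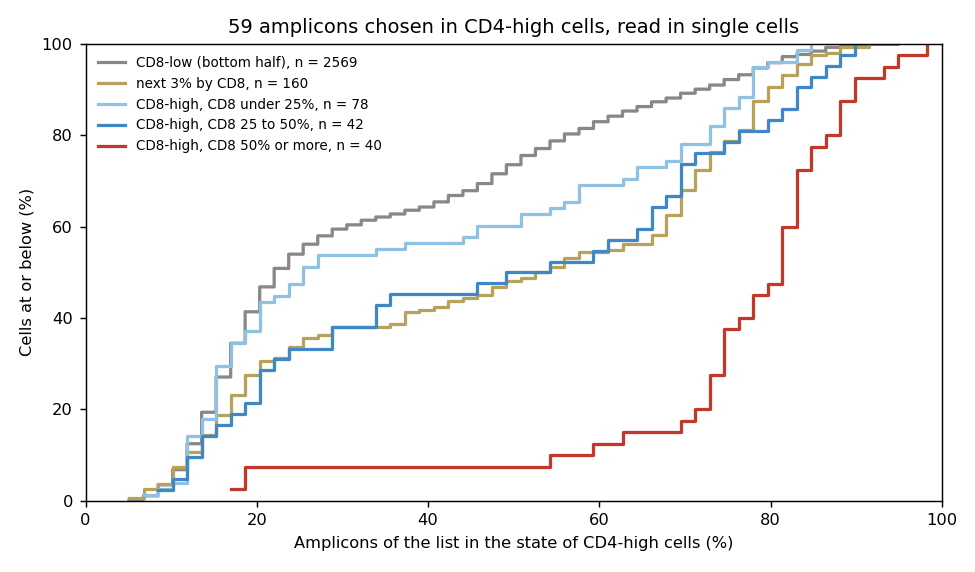
Cumulative share of cells (y axis, percent) by the share of 59 amplicons in the state of CD4-high cells (x axis, percent), for CD8-low cells, the 160 cells just below the cut and 3 ranges of the CD8 share among CD8-high cells. The curve of the 40 cells with 50% or more CD8 lies far to the right, with a median of 81.4%, against 22.0% in CD8-low cells.

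CD8-dominated cells were also set beside the 22 cells with 50% or more CD4 and the 92 with 50% or more Siglec-F. Amplicons were counted where the 2 intervals did not overlap, with no weighting on reads. From CD4-dominated cells, CD8-dominated cells stood apart at 3 of 497 amplicons, all of them lower (0.604%), and at none higher (0.0%). AMPL365898 was read in 5.00% of CD8-dominated cells (0.611 to 16.9%) and 59.1% of CD4-dominated cells (36.4 to 79.3%), and in 14.6% of CD8-low cells. AMPL366212 was read in 37.5% (22.7 to 54.2%) and 77.3% (54.6 to 92.2%), against 77.9% of CD8-low cells. AMPL371170 was read in 7.5% (1.57 to 20.4%) and 40.9% (20.7 to 63.7%), against 41.3% of CD8-low cells. AMPL365898 was thus high in CD4-dominated cells, and the other 2 were low in CD8-dominated cells. With 22 CD4-dominated cells the intervals were wide, so only large differences could be counted and the low count shows no likeness. AMPL388770, for example, was read in 90% and 59.1% and was not counted.

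From Siglec-F-dominated cells, CD8-dominated cells stood apart at 82 higher (15%) and 18 lower (3.28%) of 548 amplicons, and from CD8-low cells at 131 higher (23.6%) and 28 lower (5.05%) of 554. The sets differ in size, and a larger set gives narrower intervals, so these counts give no order of likeness. They are also not weighted on reads, of which CD8-dominated cells had a median of 29371 and CD8-low cells 23786.

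Other libraries gave the levels of the same amplicons in marrow, myeloid and lung endothelial cells. AMPL388618 was read in 96.9 to 98% of cells in the 6 LARRY bone marrow libraries and in 96.9% of the marrow and blood myeloid library, against 37.5% of CD8-dominated cells. AMPL371677 was read in 14.97 to 30.2% of cells in the 6 libraries and 9.37% of marrow and blood myeloid cells, against 90%. AMPL388770 was read in 36.4 to 66.6% in the 6 libraries and 11.0% of marrow and blood myeloid cells, against 90%. In the lung myeloid library AMPL388618, AMPL371677 and AMPL388770 were read in 95.3%, 19.5% and 36.6% of cells. In lung endothelial cells they were read in 78.65%, 6.775% and 93.8%. These amplicons are examples from the named ones. At AMPL371353, the 6 libraries (31.7 to 39.3%) lay between CD8-low (58.2%) and CD8-dominated cells (17.5%). These libraries were made and sequenced separately, so depth and library differ along with the cells, and their part in the gaps was not tested.

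Splitting the CD8-high cells by CD3 gave no clear division. The 19 CD3-high cells passed 20 points against the other 141 at 43 of 536 amplicons (8.02%), 15 higher and 28 lower (2.80% and 5.22%). With 19 cells an interval reached 23.3 points to each side, and the intervals of the 2 sets were apart at 6 of the 536 amplicons. On the CD4 list the medians were 66.1% in CD3-high and 57.6% in the other CD8-high cells, and 5 of the 19 were CD8-dominated.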

How the data were processed

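Amplicon reads were deposited by the authors as raw counts per cell and amplicon for scTAM-seq libraries, per the labels, with build mm10 per the submitters' processing notes. Tag files held UMI counts per barcode and tag, per the file headers as deposited. How reads were aligned and cells called is not stated by any label or header. The files do not pair amplicons with genes or positions.

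Cells with 100 or more tag UMIs were ranked by CD8 share. CD8-low cells were weighted to CD8-high cells over 10 bins of reads per cell (4 bins for sets under 100 cells), with Python 3.11.15, numpy 2.4.6, pandas 2.3.3 and scipy 1.17.1. The weighting was tested on simulated calls only, drawn independently with the same dependence on reads at every amplicon. Real calls need not follow that setting. Amplicons read in 2 to 98% of cells of both groups together were compared. The named amplicons were up to 12 each way with the largest differences past 20 points, and all 15 were named. AMPL388421, AMPL388409, AMPL376320, AMPL371259 and those that set CD8-dominated cells apart from CD4-dominated cells were chosen after their values were seen. Thinning drew reads without replacement and left out 6.25% of CD8-high and 10.2% of CD8-low cells. The planned comparison in the marrow and blood myeloid library was not made, because its tag file held no CD8. Another of the tags is not reported here. The members and lists were chosen with earlier results of these data known.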

Additional observations from a re-analysis of the deposited data

How the results depend on the processing

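No paired analysis was possible because the cells came from 1 library. The count of 9 higher and 6 lower amplicons stayed within 1.5 times under 2 or 5 reads, no weighting, the top 5%, the centred log ratio and without the 5% of cells with the most amplicons. It was 15 higher with thinned cells, 78 higher and 31 lower with 300 or more tag UMIs (28 CD8-high cells), 76 and 20 in the top 1%, 16 and 1 by raw CD8 UMIs, and 0 and 0 without CD8-dominated cells. It was 3 lower with 50 or more tag UMIs; this and leaving out CD8-dominated cells were chosen after seeing the data. The difference over intermediate amplicons was 4.12 points with 300 or more tag UMIs, 4.90 in the top 1%, 4.75 by raw CD8 UMIs and -0.165 without CD8-dominated cells. CD3-high cells made up 35.7% of CD8-high cells with 300 or more tag UMIs. With CD3-high set as the top 5% and top 20% of the library, they made up 3.75% and 25.6%. The library levels are then 5% and 20% by construction, so the first value lies below its level and the second above. No counting interval was taken for either, so no weight is put on these sides. The cause of the shifts was not tested. The 15 named amplicons kept their direction in all 180 alternative values, of 4.89 to 70.8 points in size, and 46 of these lay outside the counting interval of the reported value. The counts of CD8-dominated cells stayed at 80 to 92 higher and 21 to 24 lower under 5 settings chosen after seeing the data. A set of 40 cells cannot show differences under about 16.2 points at shares near 50%. Leaving the 110 list-building cells out of the CD8-low cells was chosen after seeing the data, and with them the list's medians in CD8-dominated cells were 40.4 and -42.6 points.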
